A study of Mus musculus with 6 samples.

Results

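The genes of the lysosomal proton pump, of the mTORC1 kinase complex that is docked beside it and of the MiT/TFE transcription factors that it controls were described in macrophages sorted from injured mouse muscle. They comprised 45 of the 19938 genes measured. Members were the genes whose symbols begin with Atp6v or Atp6ap, the 5 Lamtor genes, the 4 Rag GTPase genes, Flcn, Fnip1, Fnip2, Tfeb, Tfe3, Mitf, Tfec, Mtor, Rptor, Rheb, Tsc1 and Tsc2. Where a gene had more than 1 probe set, the brightest on average over the 6 arrays stood for it, so measured levels chose the probe sets, and the genes themselves were put together with earlier results of these data known.

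Both groups came from mice of the strain B6.129P2-Lyzstm1(cre)Ifo/J, which carries Cre recombinase at the lysozyme locus that is active in myeloid cells. No second allele is named, and the Cre allele was shared by every sample. Cardiotoxin, a toxin that kills muscle fibres, was injected into the tibialis anterior, and CD45+ cells were collected on day 2 with magnetic beads. From each of 3 mice, 1 Ly6C+ F4/80low and 1 Ly6C- F4/80high sample was sorted, giving 3 arrays per subset. All values are log2 expression values, and a positive difference means higher in the Ly6C- F4/80high cells. A gene was called when limma gave it an adjusted p under 0.05 (Benjamini-Hochberg, 19938 genes), and the adjusted p-values of single genes below are from that fit. The number of arrays limits the precision. In sorted bulk samples a difference in the share of cells that express a gene and a difference in RNA per cell cannot be told apart.

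The proton pump, or V-ATPase, has a cytosolic V1 sector that splits ATP and a membrane V0 sector that moves protons into lysosomes, where the acid activates digestive enzymes. Several of its subunits exist as alternative isoforms, some of which are restricted to kidney, bone or other tissues. The Lamtor proteins form Ragulator, which anchors the Rag GTPases to the lysosome. When amino acids are plentiful, these bring mTORC1 to the lysosome, where Rheb switches it on unless the TSC complex holds Rheb off. Active mTORC1 keeps TFEB, TFE3 and MITF out of the nucleus, and the folliculin complex helps it to do so through RagC and RagD. Once in the nucleus these factors bind E-box and related M-box sequences of lysosomal genes. Macrophages depend on this system to break down the dead cells and debris they engulf.

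Of the 45 genes, the Ly6C- F4/80high cells had 25 higher and 3 lower, and 17 were not called. Over all genes 19.5% were called higher and 14.3% lower. The median difference was 0.30, against -0.06 over all genes. For 26 members all Ly6C- F4/80high arrays lay above all Ly6C+ F4/80low arrays, and for 3 they lay below, against 24.4% and 23.6% of all genes. The difference was positive within each of the 3 mice for 28 members, and for 5626 of all 19938 genes. A background level of 5.44 was taken from the 95th percentile of olfactory and vomeronasal receptor genes, and 6 members lay under it on every array. They were Atp6ap1l, Atp6v0a4, Atp6v1b1, Atp6v1c2, Atp6v1g3 and Rragb. Of the other 39 members, 25 were higher and 2 lower in the fit over all genes. Each of them lay above the background on every array, so none passed it through a single subset. The genes were put together with earlier results known, so that count is a description only. In a separate fit to the 12256 genes with a mean above the background, limma called 32.2% higher and 19.4% lower. That fit called 26 of these 39 members higher and 2 lower.

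**Figure D1:**
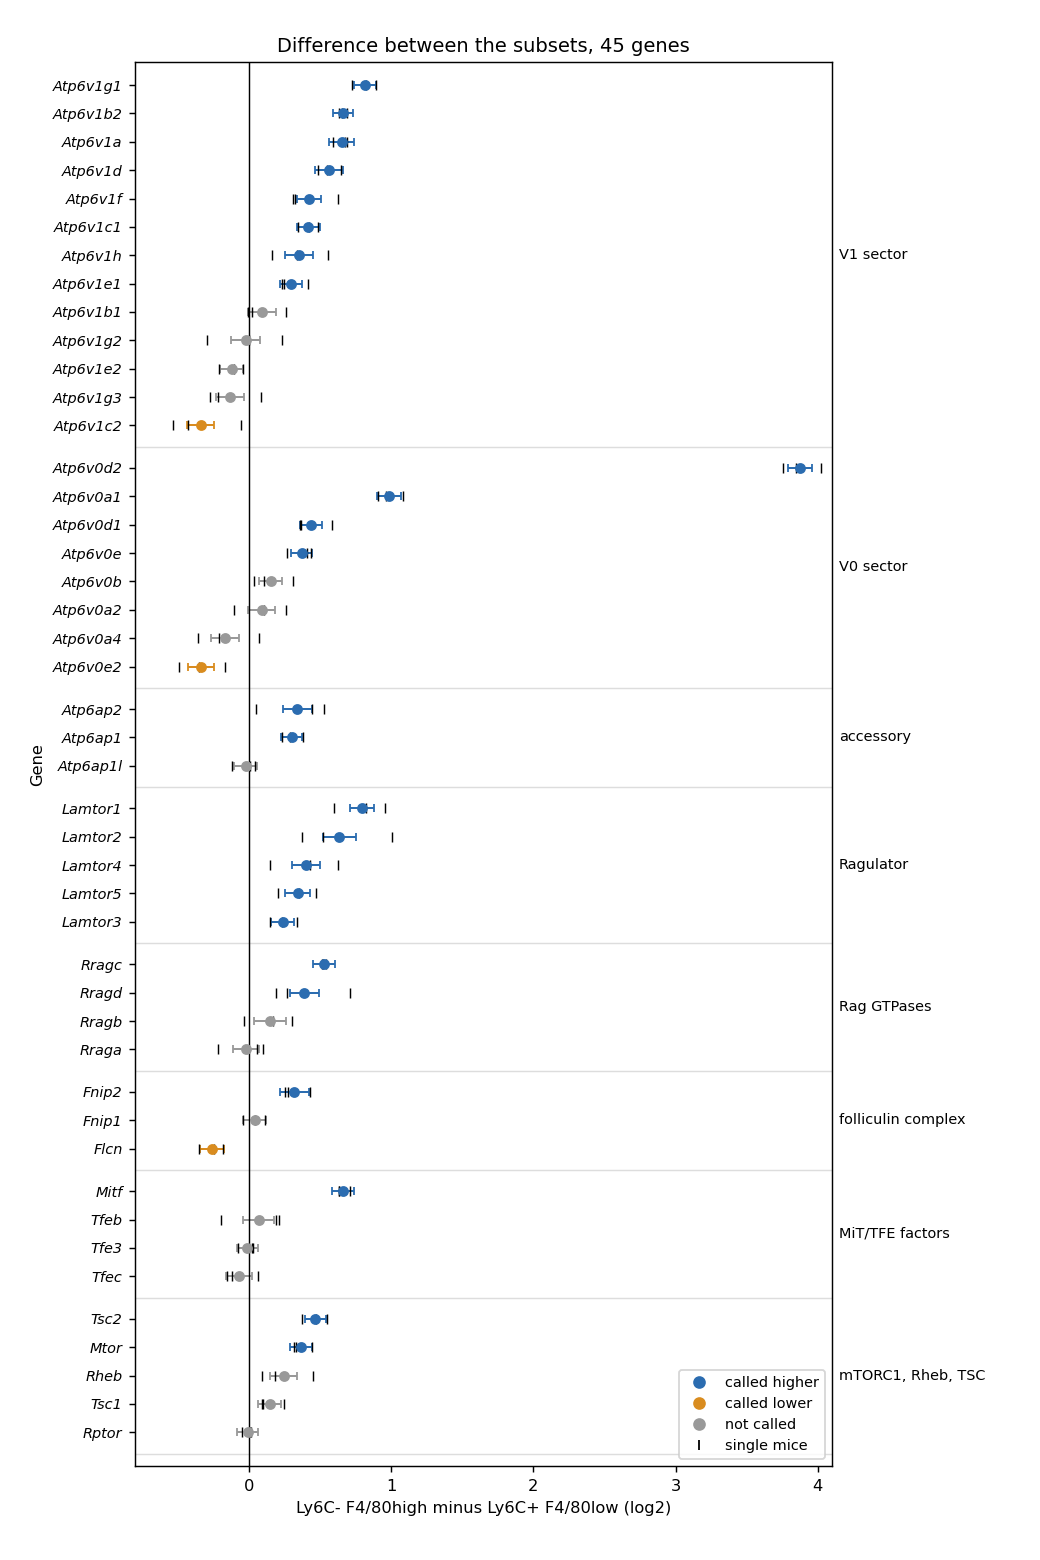
Difference of each of the 45 genes between the subsets (horizontal axis, Ly6C- F4/80high minus Ly6C+ F4/80low, log2), grouped by role. Points are limma estimates with their standard errors, ticks are the 3 mice, blue is called higher, orange called lower and grey not called; Atp6v0d2 stands at 3.88, while the other members lie between -0.34 and 0.98.

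The size of the increase was modest for nearly all of these genes. Atp6v0d2 was the exception, and every other difference was below 1, which is 2-fold. Of the 28 calls, 14 held under each of 19 other ways of scaling, filtering or fitting the data or of leaving out an array or a mouse. These 14 were all higher: Atp6v0d2, Atp6v0a1, Atp6v0d1, Atp6v0e, Atp6v1a, Atp6v1b2, Atp6v1c1, Atp6v1d, Atp6v1g1, Lamtor1, Lamtor2, Rragc, Mitf and Tsc2. Quantile normalization left 21 members called higher and cyclic loess 19, with medians of 0.24 and 0.22.

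The promoters of members were examined for the sequences that MiT/TFE factors are known to bind, because many members were higher together. RefSeq windows on assembly GRCm38.p6, from 250 bases before to 50 bases after a start site, were at hand for 37 of the 45 genes. There was no entry for Atp6v0d2, Atp6v0a2, Atp6v1b2, Atp6v1c1, Atp6v1g1, Atp6v1h, Atp6ap1l and Lamtor3. The E-box core CACGTG, which reads the same on both strands, was present in 10 of the 37 genes, against 8.09% of the 27025 genes of the table and 7.15% of its 32851 windows. All 10 had the longer TCACGTG on 1 strand or the other, which contains the E-box core and was present in 4.29% of genes. The M-box core TCATGTG, searched on both strands, was present in Lamtor1 and Lamtor2 alone among the members and in 4.31% of all genes. Of the 10 genes with an E-box, 6 were called higher and 4 were not called (Atp6v0b, Fnip1, Rheb and Rragb), and of the 27 without one 13 were higher, 3 lower and 11 not called. A match is a run of letters in a window and does not show that a factor binds there.

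Stretches that lie wholly before the start site are shown for 5 genes that were higher and for Rragb, which has 3 E-boxes, more than any other member, but was not above background. They are written 5′ to 3′ along the gene's strand, with the E-box core or M-box core in capitals. In Lamtor2 the M-box lies on the opposite strand and therefore reads CACATGA, while Lamtor1 has an M-box followed by an E-box.
Atp6v1a, chr16:44139360-44139415, minus strand: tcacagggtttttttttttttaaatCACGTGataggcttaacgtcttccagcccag
Rragc, chr4:123917296-123917351, plus strand: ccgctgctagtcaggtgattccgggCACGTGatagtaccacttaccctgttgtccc
Lamtor1, chr7:101905714-101905799, plus strand: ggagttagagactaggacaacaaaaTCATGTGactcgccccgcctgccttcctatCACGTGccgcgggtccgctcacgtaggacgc
Lamtor2, chr3:88553027-88553083, minus strand: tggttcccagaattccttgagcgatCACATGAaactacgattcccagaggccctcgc
Lamtor4, chr5:138255337-138255408, plus strand: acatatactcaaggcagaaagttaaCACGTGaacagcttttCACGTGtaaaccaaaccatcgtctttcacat
Rragb, chrX:153139806-153139952, plus strand: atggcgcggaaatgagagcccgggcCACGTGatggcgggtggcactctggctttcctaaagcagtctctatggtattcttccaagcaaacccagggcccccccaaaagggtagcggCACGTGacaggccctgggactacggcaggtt

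The E-box of Atp6v1a, which begins 131 bases before the start, is preceded by T and followed by A, so TCACGTG reads on both strands. That of Rragc begins 112 bases before its start, and the paired E-boxes of Lamtor4 begin 120 and 104 bases before theirs. In Lamtor1 the M-box begins 98 and the E-box 68 bases before the start. The E-box of Atp6v0d1 and a further one of Rragb span the start site, that of Atp6v0e lies just after its start, and these are not shown. Atp6v0b, Fnip1 and Rheb, which were not called, have E-boxes wholly before the start that are not shown either. They begin 36 and 18 bases before the start in Atp6v0b, 75 in Fnip1 and 96 in Rheb. The stretches shown are thus a choice of genes and not all matches before a start.

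Among the V0 subunits, which form the proton channel in the membrane, 4 of 8 genes were higher, 1 was lower and 3 were not called. The shares over all genes were 19.5% higher and 14.3% lower. Atp6v0d2 encodes the d2 form of the subunit that joins V1 to V0, a form known from osteoclasts and macrophages. It stood at 5.95, 6.12 and 5.95 on the Ly6C+ F4/80low arrays and at 9.97, 9.88 and 9.80 on the Ly6C- F4/80high arrays. The subsets lay far apart and the 3 arrays within each were close, and even the Ly6C+ F4/80low arrays were above the background level. The difference was 3.88 (SE 0.08, adjusted p = 5.11e-09), or 14.7-fold, and was 4.02, 3.76 and 3.85 in mice 1, 2 and 3. This was the highest positive difference of all 19938 genes, though the lowest difference over all genes, -5.72, was larger in size. The gene was known to have this difference when the members were chosen, so it is given as a description.

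Atp6v0d1, the d1 form of the same subunit made in most tissues, stood at 10.04, 10.09 and 9.99 on the Ly6C+ F4/80low arrays and at 10.40, 10.45 and 10.57 on the Ly6C- F4/80high arrays. Its difference was 0.44 (SE 0.08, adjusted p = 0.00189), or 1.35-fold. Both forms were thus higher, the d2 form by far more. Within each array the log2 difference between Atp6v0d2 and Atp6v0d1 was higher by 3.44 in the Ly6C- F4/80high cells, with values of 3.66, 3.40 and 3.26 in the 3 mice. With 3 arrays against 3 the two-sided exact permutation test gave p = 0.1, the smallest it can give, and 0.15 after adjustment over the 6 pairs of related genes compared in this way.

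Atp6v0a1 encodes the a1 form of the subunit that carries the proton path. It stood at 9.88, 9.70 and 9.65 on the Ly6C+ F4/80low arrays and at 10.79, 10.67 and 10.73 on the Ly6C- F4/80high arrays, with no overlap. It was 1.98-fold higher, by 0.98 (SE 0.09, adjusted p = 2.07e-05), the second largest difference among the members. Atp6v0a2, the a2 form found in the Golgi and endosomes, stood at 8.42, 8.52 and 8.45 on the Ly6C+ F4/80low arrays and at 8.69, 8.63 and 8.35 on the Ly6C- F4/80high arrays, and these overlapped. Its difference was 0.09 (SE 0.10, adjusted p = 0.5), and a second probe set gave -0.03. The within-array difference between Atp6v0a1 and Atp6v0a2 was larger by 0.90 in the Ly6C- F4/80high cells (exact permutation p = 0.1, 0.15 adjusted over the 6 pairs), by 0.64, 0.86 and 1.19 in the 3 mice. The a3 form, known from lysosomes and osteoclasts, is encoded by Tcirg1, whose symbol the rule does not take. Tcirg1 was higher by 0.36 (SE 0.08, adjusted p = 0.00483). Atp6v0a4, the a4 form of kidney and inner ear, was not above background on any array.

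The small V0 subunits differed less. Atp6v0e, which encodes the widely expressed form of subunit e, was higher by 0.37 (SE 0.07, adjusted p = 0.0033). Its relative Atp6v0e2, which is best known from brain, went the other way, at 6.50, 6.38 and 6.68 on the Ly6C+ F4/80low arrays and at 6.15, 6.21 and 6.19 on the Ly6C- F4/80high arrays. These did not overlap, and the difference was -0.34 (SE 0.09, adjusted p = 0.016). That call was lost without mouse 1's Ly6C- F4/80high array (adjusted p = 0.0545) and mouse 3's Ly6C+ F4/80low array (adjusted p = 0.0572), each left out alone, and without either of these mice (adjusted p = 0.0942 and 0.123). Atp6v0b, for a proteolipid of the rotating ring, differed by 0.15 (SE 0.08, adjusted p = 0.176). Atp6v0c, the main proteolipid gene, is not analysed here.

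**Figure D2:**
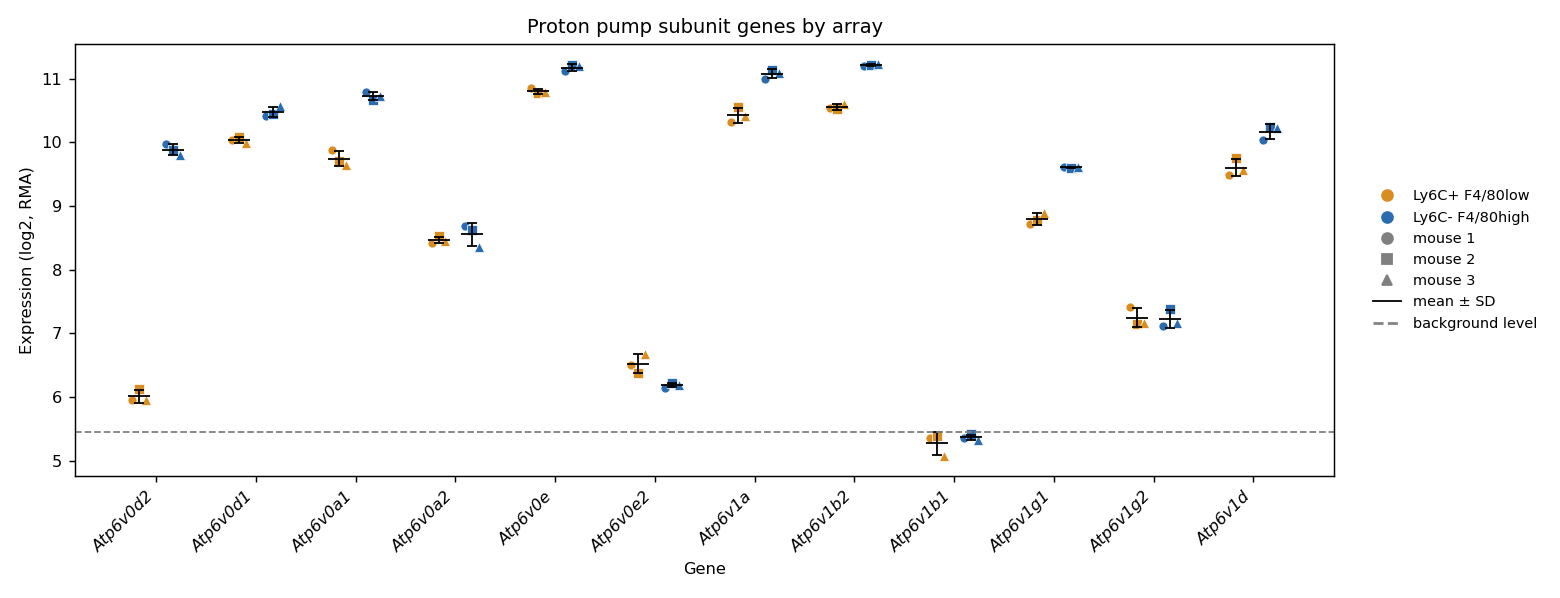
Expression (log2, vertical axis) of 12 proton pump genes on each array, with Ly6C+ F4/80low in orange and Ly6C- F4/80high in blue, a symbol for each mouse, the mean ± SD of 3 arrays in black and the background level of 5.44 as a dashed line. Atp6v0d2 averaged 6.01 and 9.88, while Atp6v0a2, Atp6v1b1 and Atp6v1g2 overlapped between the subsets; heights of different genes are not comparable because they come from different probes.

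In the V1 sector, which splits ATP, 8 of 13 genes were higher, 1 was lower and 4 were not called. Called shares over all genes were 19.5% higher and 14.3% lower. The 8 higher genes encode a full set of the parts that most tissues use: subunits A, B, C, D, E, F, G and H. The other 5 encode alternative forms. Atp6v1g1, for a subunit of the stalk that holds the sectors together, stood at 8.72, 8.77 and 8.89 on the Ly6C+ F4/80low arrays and at 9.61, 9.60 and 9.62 on the Ly6C- F4/80high arrays. It was 1.76-fold higher, by 0.81 (SE 0.08, adjusted p = 3.55e-05), and a second probe set gave 0.78.

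The ATP-splitting ring is built from subunits A and B. Atp6v1a, for the catalytic subunit A, stood at 10.31, 10.55 and 10.41 on the Ly6C+ F4/80low arrays and at 11.0, 11.14 and 11.09 on the Ly6C- F4/80high arrays. Atp6v1b2, for the B2 form of its partner, stood at 10.54, 10.52 and 10.60 on the Ly6C+ F4/80low arrays and at 11.20, 11.21 and 11.23 on the Ly6C- F4/80high arrays. Both were apart between the subsets, by 0.65 (SE 0.09, adjusted p = 0.000293) and by 0.66 (SE 0.07, adjusted p = 8.11e-05). The E-box of Atp6v1a is in the first stretch of sequence above. Atp6v1d, for the central rotor shaft, stood at 9.48, 9.75 and 9.57 on the Ly6C+ F4/80low arrays and at 10.03, 10.24 and 10.22 on the Ly6C- F4/80high arrays and differed by 0.56 (SE 0.10, adjusted p = 0.00144). All 3 of these genes were apart between the subsets.

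The remaining widely expressed V1 genes were higher by less. Atp6v1f, of the rotor shaft, differed by 0.42 (SE 0.09, adjusted p = 0.00395) and Atp6v1c1, which helps the sectors come together, by 0.42 (SE 0.08, adjusted p = 0.00248). Atp6v1h, a regulator of the assembled pump, differed by 0.35 (SE 0.10, adjusted p = 0.0214) and Atp6v1e1, of the stalks, by 0.30 (SE 0.08, adjusted p = 0.0148). Atp6v1c1 alone of these 4 was called in every alternative. The call of Atp6v1f was lost without mouse 1 (adjusted p = 0.0508), and that of Atp6v1h without the same mouse (0.25, adjusted p = 0.171) or without mouse 2 (adjusted p = 0.0720). Atp6v1h was also lost without either single array of mouse 1 (adjusted p = 0.0734 and 0.0707), without mouse 2's Ly6C+ F4/80low array (adjusted p = 0.0618) and without mouse 3's Ly6C- F4/80high array (adjusted p = 0.0640). Atp6v1e1 was lost without mouse 3 (0.24, adjusted p = 0.147) or its Ly6C+ F4/80low or Ly6C- F4/80high array (adjusted p = 0.0566 and 0.0537), and without mouse 1 (adjusted p = 0.0529). After cyclic loess neither Atp6v1h (0.24, adjusted p = 0.0884) nor Atp6v1e1 (0.20, adjusted p = 0.0684) was called, and Atp6v1h was also lost after quantile normalization (adjusted p = 0.0565).

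Of the 5 alternative V1 forms, 0 were called higher by limma, and 0 at an unadjusted p under 0.05. Atp6v1b1, of kidney and inner ear, and Atp6v1g3, of kidney, were not above background on any array and were not called. Atp6v1c2, of kidney and lung, was called lower by limma (-0.34, SE 0.10, adjusted p = 0.0206), but all of its arrays lay between 4.69 and 5.22, under the background, so no fold is given. Its call was also lost after cyclic loess (adjusted p = 0.0720) and without mouse 1, mouse 3 or any array of these mice (adjusted p between 0.0638 and 0.194). Atp6v1g2, of brain, stood at 7.41, 7.15 and 7.17 on the Ly6C+ F4/80low arrays and at 7.12, 7.38 and 7.17 on the Ly6C- F4/80high arrays, which overlapped, and differed by -0.02 (SE 0.10, adjusted p = 0.881). Atp6v1e2, of testis, differed by -0.12 (SE 0.08, adjusted p = 0.274). Of the 3 accessory genes, Atp6ap1 and Atp6ap2, whose products help build the pump in the endoplasmic reticulum, were higher by 0.30 (SE 0.08, adjusted p = 0.0128) and 0.34 (SE 0.10, adjusted p = 0.0252). Atp6ap1 was lost without mouse 2 (adjusted p = 0.0802) or mouse 3 (adjusted p = 0.0789). With the mouse as a block Atp6ap2 was at an adjusted p of 0.0505, and its difference in mouse 2 was 0.05, against 0.44 and 0.53 in mice 1 and 3. Atp6ap2 was also lost after cyclic loess (adjusted p = 0.0703), without mouse 1 (adjusted p = 0.154) or mouse 3 (0.25, adjusted p = 0.218) and without any of the 4 arrays of these mice (adjusted p between 0.0630 and 0.0965). Atp6ap1l, a relative of Atp6ap1, was not above background.

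Outside the rule, most genes listed for the pump and for lysosomal ion channels were higher as well. In a list of 20 genes for the a3 subunit, pump assembly, pump regulation and lysosomal ion channels, 19 were measured. Of these, 13 were higher and 0 lower by limma, with 13 and 1 at an unadjusted p under 0.05 and a median difference of 0.36. At the adjusted threshold 19.5% of all genes tested were higher and 14.3% lower. At an unadjusted p under 0.05, 4523 of the 19938 genes were higher and 4421 lower. Dmxl2 and Dmxl1, which encode rabconnectins that reassemble the sectors, were higher by 0.84 (SE 0.09, adjusted p = 6.67e-05) and 0.74 (SE 0.07, adjusted p = 4.8e-05). Dmxl2 stood at 8.96, 9.07 and 8.98 on the Ly6C+ F4/80low arrays and at 9.75, 10.0 and 9.78 on the Ly6C- F4/80high arrays, without overlap.

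All 5 Ragulator genes were higher, against 19.5% of all genes, with a median of 0.40. Lamtor1 encodes the lipid-anchored subunit that fixes the complex to the lysosome. It stood at 8.38, 8.21 and 8.30 on the Ly6C+ F4/80low arrays and at 8.98, 9.16 and 9.12 on the Ly6C- F4/80high arrays. It was 1.73-fold higher, by 0.79 (SE 0.08, adjusted p = 7.2e-05), and a second probe set gave 1.00. Lamtor2, for one of the scaffold subunits held by Lamtor1, stood at 6.43, 6.64 and 6.26 on the Ly6C+ F4/80low arrays and at 6.96, 7.01 and 7.27 on the Ly6C- F4/80high arrays. The subsets did not overlap, but the difference of 0.63 (SE 0.12, adjusted p = 0.00208) was uneven between mice, at 0.52, 0.37 and 1.01. These are the 2 members with an M-box in the sequences shown.

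The other Ragulator subunit genes were called with smaller differences that depended on single mice or on the scaling. Lamtor4 was higher by 0.40 (SE 0.10, adjusted p = 0.0118) and was lost without mouse 2 (adjusted p = 0.0634) or mouse 3 (0.29, adjusted p = 0.109). Lamtor5 was higher by 0.34 (SE 0.09, adjusted p = 0.0139), but by 0.17 (adjusted p = 0.189) after quantile normalization and 0.20 (adjusted p = 0.127) after cyclic loess. Leaving out mouse 1 (adjusted p = 0.0767), its Ly6C- F4/80high array alone (adjusted p = 0.0520) or mouse 2 (adjusted p = 0.0636) also ended the call. Lamtor3 was higher by 0.24 (SE 0.08, adjusted p = 0.0472). It passed the threshold under 7 of the 19 alternatives and was at an adjusted p of 0.0625 with the mouse as a block, and a second probe set gave 0.21 (adjusted p = 0.0738 over all probe sets with 1 symbol). Leaving out any array other than mouse 3's Ly6C+ F4/80low array, or any mouse, ended the call of Lamtor3, with adjusted p between 0.0828 and 0.188. Ragulator therefore had 3 of 5 genes higher when scaled by quantiles or by cyclic loess, namely Lamtor1, Lamtor2 and Lamtor4.

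Of the 4 Rag GTPase genes, which work as pairs of RagA or RagB with RagC or RagD, 2 were higher and 2 were not called. This compares with 19.5% called higher over all genes, and 4 genes give few calls. Rragc stood at 8.96, 9.10 and 9.03 on the Ly6C+ F4/80low arrays and at 9.51, 9.61 and 9.55 on the Ly6C- F4/80high arrays. It was 1.44-fold higher, by 0.53 (SE 0.08, adjusted p = 0.000525), with 0.54, 0.51 and 0.52 in the 3 mice. Rraga, for the usual partner of RagC, stood at 8.50, 8.24 and 8.31 on the Ly6C+ F4/80low arrays and at 8.28, 8.29 and 8.41 on the Ly6C- F4/80high arrays. These overlapped, and its difference was -0.02 (SE 0.09, adjusted p = 0.871). Within the RagA and RagC pair the calls therefore differed, though the difference between them was not tested.

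Rragd stood near the background, at 5.72, 5.47 and 5.66 on the Ly6C+ F4/80low arrays and at 5.99, 6.18 and 5.85 on the Ly6C- F4/80high arrays. It was higher by 0.39 (SE 0.10, adjusted p = 0.0156), and this was lost without mouse 2 (0.23, adjusted p = 0.111) or its Ly6C+ F4/80low array (0.32, adjusted p = 0.0554). The within-array difference between Rragd and Rragc was -0.14 (exact permutation p = 0.4, 0.48 adjusted over the 6 pairs), with values of -0.27, 0.20 and -0.33 in the 3 mice, so these paralogs were not separated at this spread. Rragb stood at 3.56, 3.29 and 3.75 on the Ly6C+ F4/80low arrays and at 3.72, 3.59 and 3.71 on the Ly6C- F4/80high arrays, under the background throughout.

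The folliculin complex, which activates the GTPase function of RagC and RagD, gave 1 gene higher, 1 lower and 1 not called. With 19.5% of all genes called higher and 14.3% lower, these are single calls among 3 genes. Flcn, for folliculin, stood at 9.26, 9.43 and 9.48 on the Ly6C+ F4/80low arrays and at 9.08, 9.18 and 9.13 on the Ly6C- F4/80high arrays. It was lower by 1.20-fold, with a difference of -0.26 (SE 0.08, adjusted p = 0.0361). The call was lost with a common median (adjusted p = 0.0549), without any 1 of the mice (adjusted p of 0.0576, 0.0963 and 0.217 without mice 1, 2 and 3) and without 4 of the 6 single arrays (adjusted p between 0.0895 and 0.117). These were both arrays of mouse 3, mouse 1's Ly6C- F4/80high array and mouse 2's Ly6C+ F4/80low array. Its direction was the same in all 3 mice.

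Fnip1 and Fnip2 encode alternative partners of folliculin. Fnip2 stood at 10.17, 10.46 and 10.51 on the Ly6C+ F4/80low arrays and at 10.60, 10.72 and 10.79 on the Ly6C- F4/80high arrays and was higher by 0.32 (SE 0.10, adjusted p = 0.0369). Fnip1 stood at 10.11, 10.28 and 10.31 on the Ly6C+ F4/80low arrays and at 10.23, 10.33 and 10.27 on the Ly6C- F4/80high arrays, which overlapped, with a difference of 0.04 (SE 0.08, adjusted p = 0.725). The within-array difference between Fnip2 and Fnip1 was higher by 0.28 (exact permutation p = 0.1, 0.15 adjusted over the 6 pairs), with 0.31, 0.21 and 0.31 in the 3 mice. The call of Fnip2 was lost after cyclic loess (adjusted p = 0.0693), without mouse 1, 2 or 3 (adjusted p = 0.0888, 0.0856 and 0.0993), and without 1 of 3 single arrays. These were mouse 1's Ly6C+ F4/80low array (0.21, adjusted p = 0.113) and the Ly6C- F4/80high arrays of mice 2 and 3 (adjusted p = 0.0732 and 0.123).

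Against 19.5% of all genes called higher, Mitf was the 1 gene of the 4 MiT/TFE factors that was called. It encodes a factor needed in osteoclasts, melanocytes and mast cells, and stood at 9.0, 9.14 and 9.03 on the Ly6C+ F4/80low arrays and at 9.71, 9.77 and 9.67 on the Ly6C- F4/80high arrays. The arrays were tight within each subset and did not overlap. It was 1.58-fold higher, by 0.66 (SE 0.08, adjusted p = 0.000131), with 0.71, 0.63 and 0.64 in the 3 mice. A second Mitf probe set, far under the background with a mean of 2.67 over all arrays, differed by 0.61 and gives no level.

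The other MiT/TFE genes overlapped between the subsets. Tfeb, for the factor most often described as the master regulator of lysosome genes, stood at 7.76, 7.36 and 7.48 on the Ly6C+ F4/80low arrays and at 7.57, 7.55 and 7.69 on the Ly6C- F4/80high arrays. Tfe3, its close and widely expressed relative, stood at 9.31, 9.30 and 9.28 on the Ly6C+ F4/80low arrays and at 9.24, 9.32 and 9.30 on the Ly6C- F4/80high arrays. Tfec, a member expressed mainly in macrophages, stood at 9.17, 9.29 and 9.13 on the Ly6C+ F4/80low arrays and at 9.24, 9.17 and 8.97 on the Ly6C- F4/80high arrays. None of these sets of arrays showed one subset wholly above the other. The differences were 0.07 (SE 0.11, adjusted p = 0.643) for Tfeb, -0.01 (SE 0.07, adjusted p = 0.915) for Tfe3 and -0.07 (SE 0.09, adjusted p = 0.573) for Tfec. These are RNA levels, and where the proteins lay in the cell was not measured.

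The within-array difference between Mitf and Tfeb was higher by 0.59 in the Ly6C- F4/80high cells (exact permutation p = 0.1, 0.15 adjusted over the 6 pairs), with 0.90, 0.44 and 0.43 in the 3 mice. That between Tfec and Tfe3 was -0.06 (exact permutation p = 0.7, also 0.7 adjusted).

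**Figure D3:**
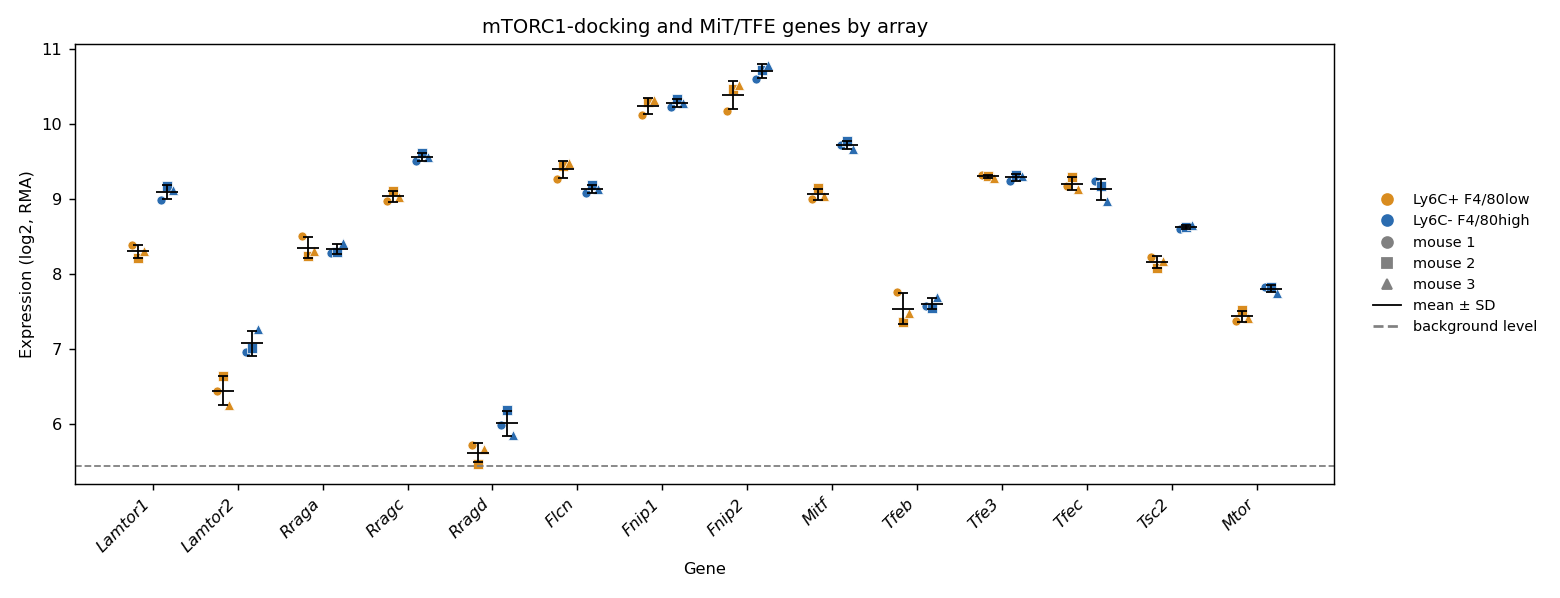
Expression (log2, vertical axis) of 14 genes of Ragulator, the Rag GTPases, the folliculin complex, the MiT/TFE factors, Tsc2 and Mtor on each array, drawn as in the plot of pump genes. Lamtor1, Rragc, Mitf and Tsc2 separate the subsets, whereas Rraga, Fnip1, Tfeb, Tfe3 and Tfec overlap.

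The kinase, its switch and its brake gave 2 of 5 genes higher. Called higher were 19.5% of all genes and 32.2% of genes with a mean above the background. A count over 5 genes rests on few calls. Tsc2, for the subunit that inactivates Rheb, stood at 8.23, 8.07 and 8.17 on the Ly6C+ F4/80low arrays and at 8.60, 8.62 and 8.65 on the Ly6C- F4/80high arrays and was higher by 0.47 (SE 0.08, adjusted p = 0.00102). Its partner Tsc1 differed by 0.14 (SE 0.08, adjusted p = 0.18) and was not called. The Tsc1 arrays lay apart upward, as did those of 24.4% of all genes. After quantile normalization the Tsc1 difference was -0.0004 (adjusted p = 0.998). Mtor, for the kinase itself, stood at 7.37, 7.51 and 7.42 on the Ly6C+ F4/80low arrays and at 7.82, 7.83 and 7.75 on the Ly6C- F4/80high arrays and was higher by 0.37 (SE 0.08, adjusted p = 0.0044). That call was lost after quantile normalization (0.19, adjusted p = 0.0770) and narrowly without mouse 1 (adjusted p = 0.0501). Rptor, for the subunit that defines mTORC1, differed by -0.01 (SE 0.07, adjusted p = 0.929). Rheb differed by 0.24 (SE 0.09, adjusted p = 0.0672) and was called when low genes were filtered out (adjusted p = 0.0464 and 0.0382), with a trended robust prior (adjusted p = 0.0309) and without mouse 2's Ly6C+ F4/80low array (0.32, adjusted p = 0.0327).

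Genes further along the mTOR pathway were taken from lists outside the rule. Of 20 measured genes for other mTOR complex subunits, inputs and outputs, 3 were higher and 1 was lower, leaving 16 not called, and the median was -0.01. Over all genes 19.5% were higher and 14.3% lower, so the count of this list is not above the background. The largest difference was that of Tbc1d7, for a further subunit of the TSC complex, which stood at 5.15, 5.0 and 5.70 on the Ly6C+ F4/80low arrays and at 7.75, 7.47 and 7.76 on the Ly6C- F4/80high arrays. It was higher by 2.38 (SE 0.16, adjusted p = 4.76e-06), though 2 of the 3 Ly6C+ F4/80low arrays were under the background. Mapkap1, of the related complex mTORC2, was higher by 0.54 (SE 0.08, adjusted p = 0.000556). Akt2, for a kinase upstream of the TSC complex, was lower, with a difference of -0.25 (SE 0.07, adjusted p = 0.0243). Akt2 was lost without any 1 mouse (adjusted p = 0.120, 0.0652 and 0.144 without mice 1, 2 and 3) and without any single array except mouse 2's Ly6C- F4/80high array, at adjusted p between 0.0517 and 0.0851.

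Of 18 measured genes for amino acid sensors and the complexes that set the state of the Rag GTPases, 4 were higher and 2 lower, leaving 12 not called, and the median was 0.07. These counts are near the 19.5% higher and 14.3% lower of all genes. Among the leucine sensors, Sesn1 stood at 8.02, 7.71 and 7.46 on the Ly6C+ F4/80low arrays and at 8.97, 8.53 and 8.60 on the Ly6C- F4/80high arrays and was higher by 0.97 (SE 0.15, adjusted p = 0.000849). Sesn2 was lower, with a difference of -0.49 (SE 0.11, adjusted p = 0.00848), which was lost without mouse 2 (adjusted p = 0.0537) or mouse 3 (adjusted p = 0.0741). The arginine sensor gene Castor1 stood at 7.32, 7.10 and 7.47 on the Ly6C+ F4/80low arrays and at 6.49, 6.49 and 6.59 on the Ly6C- F4/80high arrays, a difference of -0.78 (SE 0.10, adjusted p = 0.000234). Its relative Castor2 was higher by 0.50 (SE 0.10, adjusted p = 0.00377). The leucine sensor genes therefore included 1 that was higher, Sesn1, and 1 that was lower, Sesn2.

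Lysosomal and osteoclast genes described as targets of MiT/TFE factors were mostly higher, with 14 of 23 measured genes higher and 3 lower and a median of 0.40. The shares over all genes were 19.5% higher and 14.3% lower, so the lower count is near that of all genes. Naglu, for a lysosomal enzyme of heparan sulfate breakdown, stood at 7.46, 7.51 and 7.50 on the Ly6C+ F4/80low arrays and at 9.10, 9.05 and 9.16 on the Ly6C- F4/80high arrays and was higher by 1.61 (SE 0.07, adjusted p = 4.33e-07). Ctsk, for the collagen-cutting protease cathepsin K, was higher by 1.31 (SE 0.11, adjusted p = 1.62e-05). Ocstamp, for a membrane protein of osteoclast fusion, went the other way, at 7.46, 7.0 and 7.35 on the Ly6C+ F4/80low arrays and at 6.09, 6.26 and 5.71 on the Ly6C- F4/80high arrays, a difference of -1.25 (SE 0.15, adjusted p = 0.000176). Hif1a, for the hypoxia factor, was lower as well, with a difference of -0.50 (SE 0.09, adjusted p = 0.00244). The lists share Mcoln1, Clcn7, Ostm1 and Slc38a9, so their counts are not separate.

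**Figure D4:**
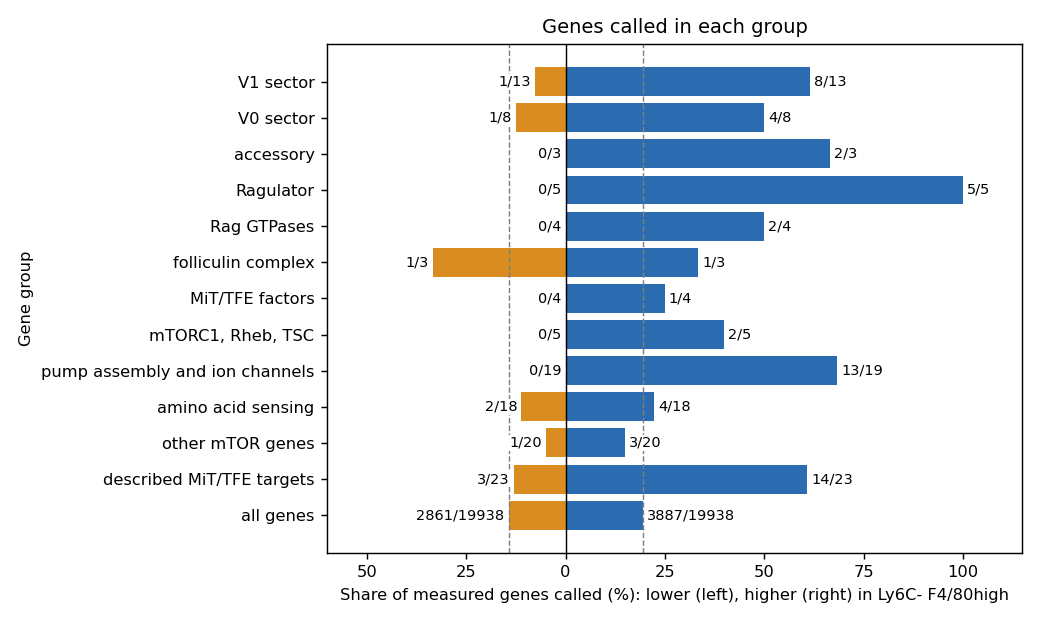
Share of measured genes called higher (blue, right) and lower (orange, left) in the Ly6C- F4/80high cells, in percent, for the roles of the members, the 4 lists outside the rule and all genes; numbers are genes called of genes measured and dashed lines mark the shares over all genes. All roles of the members lie above the 19.5% of all genes called higher, as do the pump assembly and described target lists. The amino acid sensing and other mTOR lists lie near the 19.5%. Among genes with a mean above the background, a separate fit called 32.2% higher. The MiT/TFE factors, at 1 of 4, lie under that share, and the folliculin complex, at 1 of 3, lies near it. Roles with 3 to 5 genes rest on very few calls, with 1 higher call each for the folliculin complex and the MiT/TFE factors.

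The labelled cell type was checked against defining markers. All 9 measured macrophage markers were above background in both subsets, with list means of 10.3 to 10.4 on the Ly6C+ F4/80low and 10.7 on the Ly6C- F4/80high arrays. They did not go one way: 4 were higher (Cd68, Mertk, C1qa and Adgre1) and 3 lower (Itgam, Fcgr1 and Cd14). Adgre1 encodes a surface antigen by which the subsets were sorted, so its higher call is not independent of the sort. Adgre1 also enters the list means of the macrophage markers. So does Lyz2, from the lysozyme locus that carries the Cre allele in every sample. Its means were 7.82 in the Ly6C+ F4/80low and 7.95 in the Ly6C- F4/80high cells. The effect of that allele on the level of Lyz2 was not tested. Of 9 osteoclast markers, a cell type known for Atp6v0d2, 2 were higher (Acp5 and Ctsk) and 3 lower (Calcr, Ocstamp and Itgb3), and the list means of 6.53 to 6.65 and 6.57 to 6.67 overlapped. Calcr lay under the background on every array, so it has no usable difference, and Itgb3 stood near the background. Some markers of other cell types were above background, among them Mmp8 of neutrophils (means of 9.03 and 9.76 in the Ly6C+ F4/80low and Ly6C- F4/80high cells), Cdh5 of endothelium (7.82 and 6.31) and Col1a1 of fibroblasts (6.99 and 6.69). Levels of different probes give no share of cells. Fibroblast markers averaged 5.50 to 5.94 on the Ly6C+ F4/80low and 5.18 to 5.23 on the Ly6C- F4/80high arrays, with 4 of 5 lower. Endothelial markers averaged 6.18 to 6.40 and 5.41 to 5.50, with 4 of 5 lower, and dendritic cell markers 5.64 to 5.70 and 5.17 to 5.26, with 4 of 8 lower. Neutrophil markers averaged 5.31 to 5.40 and 5.15 to 5.30, with 3 of 11 lower and Mmp8 higher. Lymphocyte, eosinophil and mast cell, and myogenic lists had 1 of 6, 2 of 6 and 2 of 7 lower. Over all genes 19.5% were called higher and 14.3% lower, and short lists such as these rest on few calls. Among the markers called lower, Ly6g, Cxcr2, Cma1 and Tek lay under the background on every array. The part of these other cell types in the differences of the 45 genes was not tested.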

How the data were processed

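Total RNA of the 6 samples was extracted with Trizol and 150 ng per array was amplified and labelled, per the labels' protocols. The authors deposited log2 values made with RMA, a method that subtracts background, equalizes the arrays by quantiles and summarizes probe sets, per the submitters' processing notes. The program is unstated (not given in the sources used here). The log2 scale was read from the range of the values. Because RMA compresses weak signals, differences of weak genes are understated. Of 35556 probe sets, 21789 have 1 gene symbol in the probe annotation, 1621 several and 12146 none. Those with 1 symbol gave 19938 genes, each by its highest probe set. The rule found 51 probe sets of 45 genes, 6 of them with more than 1, and all 45 matched RefSeq by Entrez identifier with 0 symbols changed.

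The subsets were compared with limma 3.58.1 under R 4.3.3 (lmFit and eBayes, two-sided, no filter), which was tested on simulated data. Pairs of related genes were tested with an exact permutation test. The members and lists were chosen with earlier results of these data known. Printed in full were Atp6v0d2, called members with a difference of at least 0.5, and the Rag, folliculin complex and MiT/TFE genes. Other members were shown where they complete a pair or a role. From each list outside the rule came up to 2 called genes in each direction, and Tcirg1 whatever its result. These 4 lists hold 87 different symbols, of which 76 were measured, and Gatsl2 and Gatsl3 are older names of Castor2 and Castor1.

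Per the labels each mouse gave both samples, so arrays are paired by mouse. Deviations of paired arrays from their subset means correlated at 0.03, -0.08 and 0.09 in mice 1, 2 and 3. The comparison was made without this pairing, and a model with mouse as a block was an alternative. Others were a random mouse effect, quantile normalization, a common median, cyclic loess, removal of the lowest 25% of genes or of those with a mean under background, averaging the probe sets of each gene, array weights, a trended robust prior, and omission of single arrays or single mice.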

Additional observations from a re-analysis of the deposited data

How the results depend on the processing

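Members called higher numbered 17 to 26 over the 19 alternatives, against 25, and 14 of the 28 calls held in each of them, all of them higher. The 3 lower calls did not: members called lower numbered 0 to 3 when an array or a mouse was left out. Genes of the 4 outside lists called lower numbered 13 after quantile normalization, against 6, and 3 to 7 without an array or a mouse, while those called higher numbered 24 to 30 without one, against 30. The within-array difference between Rragd and Rragc was 0.039 after cyclic loess, against -0.14, and the cause was not tested. With the mouse as a replicate block 23 members were higher and 3 lower. The block ended the calls of Atp6ap2 and Lamtor3 and changed no other call of a member. Outside the rule it added the calls of Prr5l, Ddit4, Dcstamp and Ppargc1a, of which Prr5l and Ddit4 differed by 0.37 and -0.62, while Dcstamp and Ppargc1a were under the background on all 6 arrays. No member call changed direction under any alternative run. Only 3 arrays per subset limit the precision, and 6 members under the background level have no usable difference.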
